A study of Sus scrofa with 20 samples.

Results

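Muscles of the pigs differed in how much transcript of the slow contractile machinery they held, and the comparison described here set the arrays richest in it against the poorest. Of the 20 arrays, each from the M. longissimus of 1 female pig, 14 entered the comparison: the 7 with the highest and the 7 with the lowest slow score, with the 6 in between left aside. The slow score of an array is the mean of 4 genes, MYH7, MYL3, TNNT1 and MYOZ2, after each had been regressed on the array's mean background signal. The arrays are called slow-rich and slow-poor below. The names refer to these transcripts, since fibres were not counted, and in bulk muscle more slow fibres and more slow transcript per fibre cannot be told apart.

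The study itself set 10 pigs of low residual feed intake (RFI, a measure of how far an animal's feed intake departs from what its size and growth call for) beside 10 of high RFI. Breed, age and litter are not given in the sources used here, and no treatment or genotype is named. RNA came from whole muscle, and its biotin-labelled copy was read on Affymetrix Snowball arrays, which measure pig transcripts in 1 colour. All values are log2 signals, with the background regressed out unless stated otherwise, and a difference of 1 is a doubling of signal.

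Skeletal muscle is a mosaic of fibre types. Slow fibres carry a slow myosin heavy chain with its own light chains and troponins, take calcium back with a slow-type pump under the brake of phospholamban, and draw on mitochondrial oxidation of fatty acids. Fast fibres use other versions of the same proteins and more glycolysis, and the longissimus of the pig, a back muscle sold as loin, is known as a mostly fast muscle.

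The slow-rich arrays were high RFI replicates 1, 3, 8, 10 and 6, with scores of 0.76, 0.43, 0.25, 0.20 and 0.18, and low RFI replicates 5 and 10, with scores of 0.61 and 0.43. The slow-poor arrays were high RFI replicates 5, 9, 2 and 7, with scores of -0.10, -0.23, -0.24 and -0.78, and low RFI replicates 4, 9 and 8, with scores of -0.15, -0.60 and -0.91. The widest step between neighbours, from -0.24 to -0.60, lay among the slow-poor arrays, and neither edge of the split fell on a gap. The last slow-rich array had 0.18 and the next one outside, high RFI replicate 4, had 0.13. The first slow-poor array had -0.10 and the next one outside, low RFI replicate 6, had -0.083. The background signal lay between 3.49 and 3.88 in slow-rich arrays and between 3.46 and 3.90 in slow-poor arrays. Its median was 3.57 in each. The regression had made the score uncorrelated with background, so this likeness of the ends is no test of background. Before the regression, the correlation of the score with background was -0.40 over the 20 arrays.

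**Figure D1:**
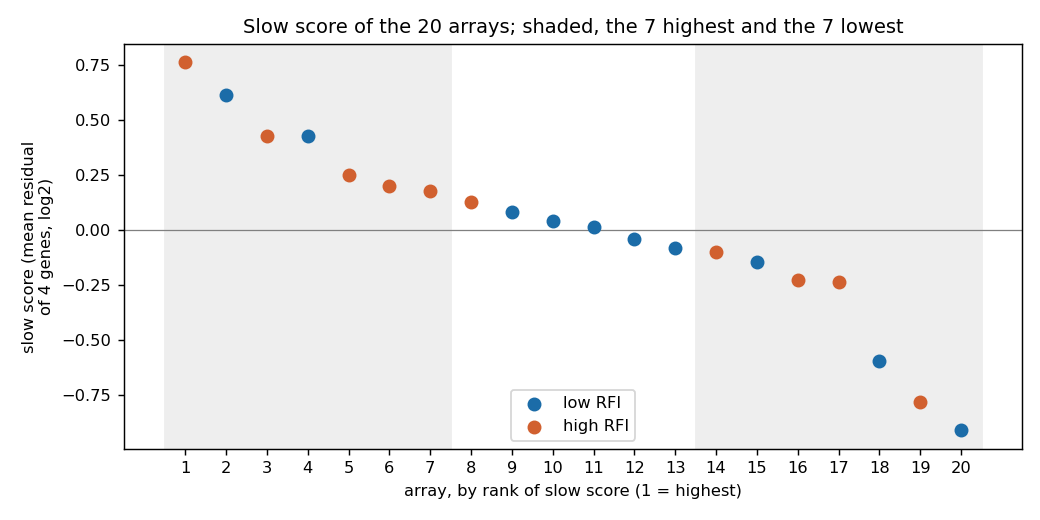
Slow score (mean background residual of 4 genes, log2) of the 20 arrays against their rank, coloured by RFI group, with the slow-rich and slow-poor arrays shaded. The scores run from 0.76 to -0.91, and both RFI groups occur in both shaded ends.

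The arrays were chosen by the measured signals of the 4 score genes, so the values of these genes are a description only. MYH7, the slow myosin heavy chain, averaged 11.97 ± 0.16 in slow-rich and 11.41 ± 0.29 in slow-poor arrays (SD, n = 7 each). MYL3, its essential light chain, averaged 11.11 ± 0.27 in slow-rich and 10.41 ± 0.33 in slow-poor arrays. TNNT1, the slow troponin T, averaged 10.52 ± 0.27 in slow-rich and 9.76 ± 0.39 in slow-poor arrays. MYOZ2, a calcineurin-binding protein of the Z disc, spanned the widest range of the 4, with 6.78 ± 0.39 in slow-rich and 5.46 ± 0.58 in slow-poor arrays. Its differences therefore weighed most in the score. The values of MYOZ2 also rested on the background regression. That step moved MYOZ2 from 5.80 to 6.85 in low RFI replicate 10 and from 7.52 to 6.92 in high RFI replicate 3, both slow-rich. In low RFI replicate 9, a slow-poor array, MYOZ2 moved from 4.17 to 5.30. With a score made without the regression, 6 of the 7 slow-rich and 5 of the 7 slow-poor arrays kept their place. An additional probe set of MYH7 and one of TNNT1, which took no part in the score, differed by 0.73 and 0.86, but they read the same transcripts.

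RFI took no part in choosing the arrays and can be set against them. Low RFI supplied 2 and high RFI 5 of the slow-rich arrays, and low RFI 3 and high RFI 4 of the slow-poor arrays (2-sided Fisher's exact test, p = 1). Over all 20 arrays the score averaged -0.060 ± 0.44 in low RFI and 0.060 ± 0.42 in high RFI (SD, n = 10 each). The difference of -0.12 was well within the spread of either group (2-sided permutation test, 100000 resamples, p = 0.542). Scores ranged from -0.91 to 0.61 in low RFI and from -0.78 to 0.76 in high RFI. With the score held as a covariate, limma called 0 of 12115 genes between low and high RFI (0%), and 550 genes had an unadjusted p under 0.05. Without that covariate limma also called 0 of 12115 genes, and 492 had an unadjusted p under 0.05.

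Over the 12115 genes tested outside the score, 3 passed limma at an adjusted p under 0.05 between slow-rich and slow-poor arrays, which is 0.0248% of the genes. All 3 rose in slow-rich arrays, and all 3 encode slow contractile proteins: TNNI1, MYL2 and TPM3. No gene passed in the lower direction (0%). At an unadjusted p under 0.05 stood 634 genes with a higher value (5.23%) and 462 with a lower one (3.81%). Because the arrays were ordered by 4 slow genes, a call says that a gene varied together with those genes over these animals.

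TNNI1, the slow troponin I that holds the thin filament off at rest, had a lowest, median and highest value of 10.51, 10.65 and 11.02 in slow-rich arrays, against 9.59, 9.70 and 10.22 in slow-poor arrays. Every slow-rich array lay above every slow-poor array. The difference was 0.87 ± 0.13 (SE), a 1.83-fold change (limma, adjusted p = 0.0191). MYL2, the regulatory light chain of slow and cardiac myosin, had 10.11, 10.34 and 10.67 in slow-rich arrays, against 9.24, 9.56 and 9.83 in slow-poor arrays. It too left no overlap, and it rose by 0.79 ± 0.12, or 1.73-fold (adjusted p = 0.0191). TPM3, the tropomyosin gene whose muscle form is the slow one, had 9.23, 9.62 and 10.13 in slow-rich arrays, against 8.21, 8.76 and 9.07 in slow-poor arrays. The ends were again apart, and the rise was 0.98 ± 0.16, or 1.98-fold (adjusted p = 0.0420). TNNI1 had 2, MYL2 had 2 and TPM3 had 3 tested probe sets, all with a difference in the same direction.

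The calls of these 3 genes depended on single arrays, while their differences changed little. Without any 1 of high RFI replicates 1 and 7 or low RFI replicates 5, 8, 9 and 10, no gene passed. Without high RFI replicate 9 or 10 only TNNI1 passed, and without high RFI replicate 3 TNNI1 and MYL2 did. Without high RFI replicate 2, a slow-poor array, 28 genes passed, 24 higher and 4 lower in slow-rich arrays, the 3 named genes and also TNNC1, PLN and LPL among them. Without high RFI replicate 5 it was 5 genes, MRPS6 and CSTF3 being added. With 1 array left out, the differences stayed between 0.82 and 0.94 for TNNI1, between 0.74 and 0.84 for MYL2 and between 0.90 and 1.06 for TPM3. Without the regression on background no gene passed, with differences of 0.82 for TNNI1, 0.90 for MYL2 and 1.17 for TPM3.

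**Figure D2:**
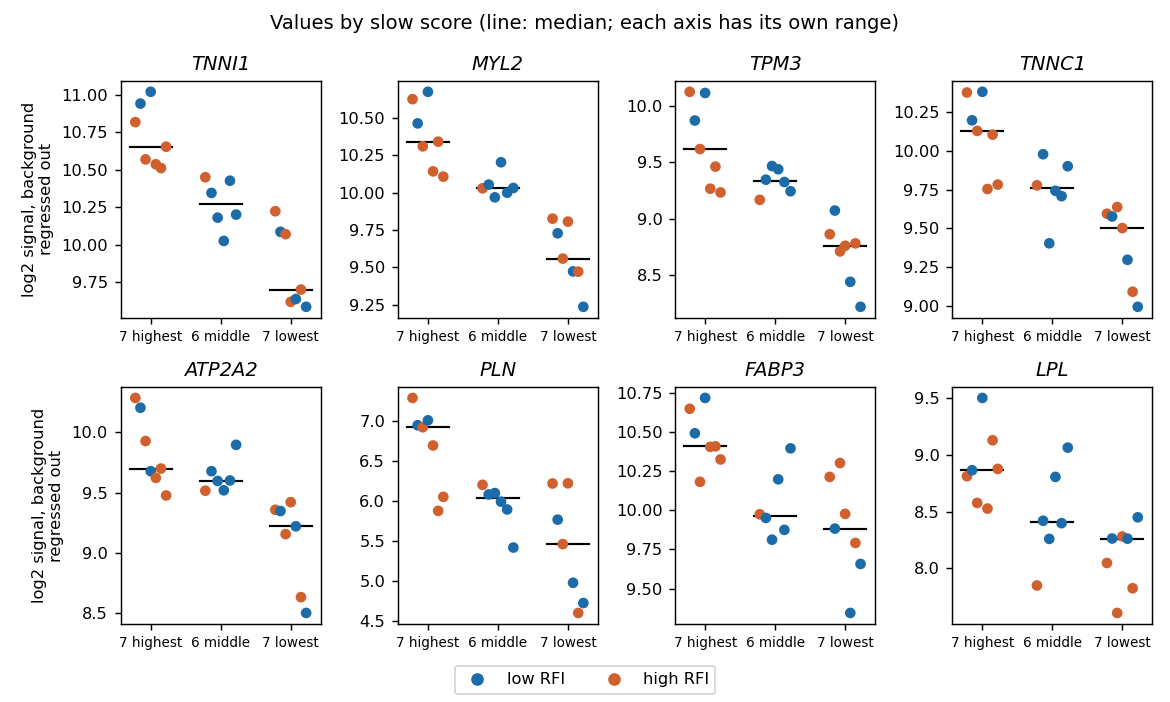
Background-adjusted log2 signals of 8 genes by array for the 7 highest, the 6 middle and the 7 lowest arrays of the slow score, coloured by RFI group, with a line at the median. TNNI1, MYL2, TPM3, TNNC1, ATP2A2 and LPL show no overlap between the outer columns, PLN and FABP3 a partial one, and in all 8 genes the median of the middle arrays lies between the other medians.

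Another 3 genes of the slow machinery had differences of similar size and missed the threshold over the 14 arrays. TNNC1, the troponin C of slow and cardiac muscle, had 9.75, 10.13 and 10.38 in slow-rich arrays, against 8.99, 9.50 and 9.64 in slow-poor arrays, a difference of 0.72 ± 0.13 (adjusted p = 0.123). ATP2A2, the slow-type calcium pump of the sarcoplasmic reticulum, had 9.48, 9.70 and 10.29 in slow-rich arrays, against 8.50, 9.22 and 9.42 in slow-poor arrays, a difference of 0.75 ± 0.17 (adjusted p = 0.192). Neither gene overlapped between the ends. PLN, phospholamban, the inhibitor of that pump, had the widest spread of the slow contractile list: 5.87, 6.92 and 7.28 in slow-rich arrays, against 4.60, 5.46 and 6.22 in slow-poor arrays. Its difference of 1.26 ± 0.27, or 2.39-fold, came with overlapping ends (adjusted p = 0.189).

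The other 3 tested members of the slow contractile list lay closer to 0. MYBPC1, the slow myosin-binding protein C, differed by 0.42 ± 0.16 (adjusted p = 0.471). CASQ2, the calsequestrin of slow and cardiac muscle, differed by 0.21 with a 95% interval from -0.16 to 0.58. MYH7B, an ancient slow-type myosin gene, differed by 0.071 with an interval from -0.20 to 0.34. In all, 9 of the list's 14 members were tested, since MYH6, MYL6B, ANKRD2, CSRP3 and MYOZ3 had no named probe set above the signal minimum. All 9 differences were above 0, against 50.2% of all genes, and their median was 0.75, against 0.00097 for all genes. Values of the ends did not overlap for 5 of the 9, against 0.0908% of all genes in that direction.

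Using the score as a continuous measure over all 20 arrays takes in the 6 middle arrays as well, and gave 9 called genes (0.0743%), all rising with the score. Of these 9, 6 were slow contractile genes, with slopes per unit of score of 1.63 for PLN, 1.09 for TPM3, 0.94 for ATP2A2, 0.92 for TNNI1, 0.86 for MYL2 and 0.84 for TNNC1. Their adjusted p-values in limma lay between 2.85e-07 for PLN and 1.43e-05 for TNNC1. The middle arrays filled the gap: TNNI1 had 10.03, 10.27 and 10.45 there and MYL2 had 9.97, 10.03 and 10.20. The other 3 called genes were FABP3, with a slope of 0.64 (adjusted p = 0.0382), LCLAT1, with 0.85 (adjusted p = 0.0144), and MRPS6, with 0.86 (adjusted p = 0.0226).

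FABP3 encodes the fatty acid carrier of heart and slow muscle, LCLAT1 an enzyme that remodels cardiolipin and related lipids, and MRPS6 a protein of the small mitochondrial ribosomal subunit. FABP3 had 10.18, 10.41 and 10.72 in slow-rich arrays, against 9.34, 9.88 and 10.30 in slow-poor arrays. LCLAT1 had 7.49, 7.73 and 8.19 in slow-rich arrays, against 6.53, 6.85 and 7.64 in slow-poor arrays. MRPS6 had 5.91, 6.35 and 6.71 in slow-rich arrays, against 5.01, 5.32 and 6.32 in slow-poor arrays. Each overlapped between the ends by at least 1 array, and none passed over the 14 arrays, with adjusted p-values of 0.294 for FABP3, 0.189 for LCLAT1 and 0.133 for MRPS6.

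No fast contractile gene passed. Of 15 tested members of 16, ACTN3 being the one not tested, 10 differences were above 0 and 5 below, with a median of 0.035. The median was 0.11 in low RFI and -0.0079 in high RFI. MYH1, the fast IIX myosin heavy chain, had 10.97, 11.78 and 12.25 in slow-rich arrays, against 11.81, 12.03 and 12.42 in slow-poor arrays. Its difference was -0.35 ± 0.17 (adjusted p = 0.551). PVALB, parvalbumin, a calcium buffer of the fastest fibres in rodents, had 7.73, 8.45 and 8.82 in slow-rich arrays, against 8.28, 8.90 and 9.48 in slow-poor arrays, a difference of -0.49 ± 0.19 (adjusted p = 0.473). These 2 were the only members of the list with an unadjusted p under 0.05.

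MYH4, the fast IIB myosin heavy chain, differed by -0.023 with a 95% interval from -0.23 to 0.18, and ATP2A1, the fast-type calcium pump, by -0.013 with an interval from -0.19 to 0.17. The sign of both turned under some of the other settings tried. MYH2, the oxidative IIA myosin, varied widely, from 9.30 to 10.69 in slow-rich arrays and from 8.96 to 10.81 in slow-poor arrays, and differed by 0.13 with an interval from -0.46 to 0.71. The fast light chains MYL1 and MYLPF differed by 0.048 and 0.13. The fast troponins TNNI2, TNNT3 and TNNC2 differed by 0.034, 0.13 and 0.035, the first and last of which, with MYL1, turned below 0 after cyclic loess normalization. Probes of closely related myosin genes may share signal, so values of single myosin genes are uncertain. Of the 15 fast genes 10 had a mean signal above 12, as only 24 of all tested genes did, the brightest having 13.85. Whether the arrays were near saturation there was not tested, so small differences of these genes do not show that their transcripts were level.

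**Figure D3:**
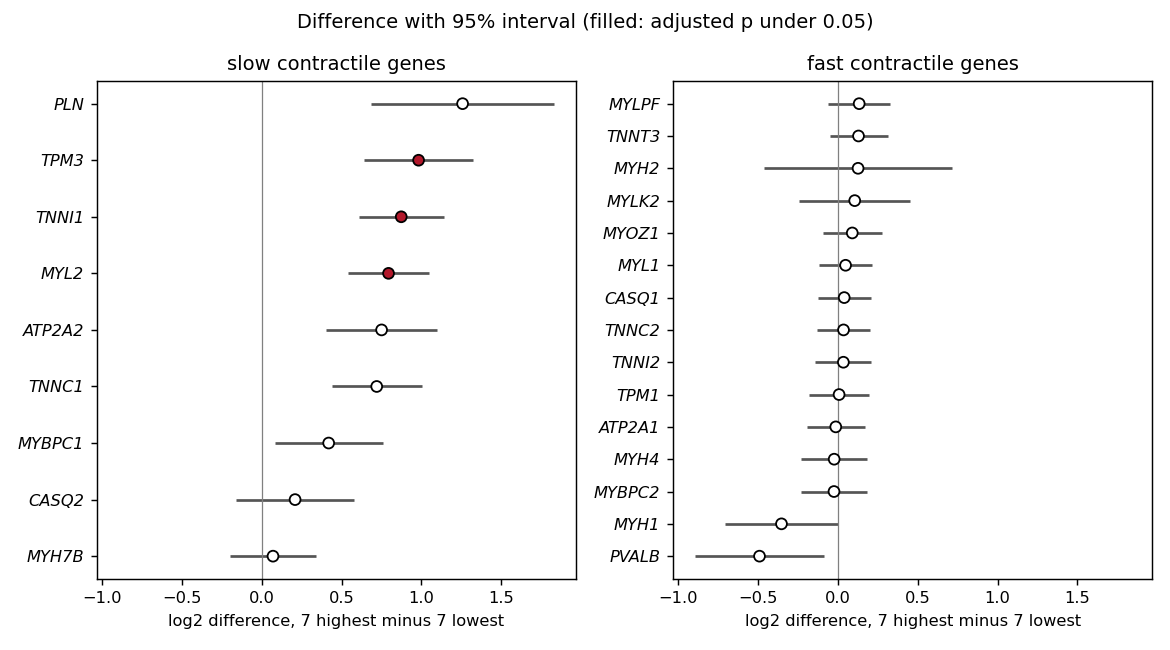
Log2 difference (slow-rich minus slow-poor arrays, n = 7 each) with its 95% interval for the 9 slow and 15 fast contractile genes tested; filled points passed limma at an adjusted p under 0.05. The slow genes lie between 0.071 and 1.26, while the fast genes lie between -0.49 and 0.13.

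Within each RFI group the same direction held for the slow genes. The difference of TNNI1 was 1.21 in low RFI and 0.71 in high RFI, that of MYL2 1.09 in low RFI and 0.64 in high RFI, and that of TPM3 1.42 in low RFI and 0.77 in high RFI. All 9 slow contractile genes were above 0 in both groups, with a median of 1.002 in low RFI and 0.64 in high RFI. On average the ends lay further apart in score in low RFI, with 0.61 and 0.43 against -0.15, -0.60 and -0.91. In high RFI the scores ran from 0.18 to 0.76 against -0.78 to -0.10. The sizes of differences therefore cannot be compared directly between the groups. With 2 slow-rich against 3 slow-poor arrays in low RFI, and 5 against 4 in high RFI, limma called 0 genes in low RFI (0%; 1274 with an unadjusted p under 0.05) and 0 in high RFI (0%; 608 with an unadjusted p under 0.05). Without low RFI replicate 4, 3 genes passed in low RFI, and without high RFI replicate 3, 1 gene passed in each group. The difference between the RFI groups itself was called for 1 gene (0.00825%), MIR99A, at a signal below background. It was not called for any slow contractile gene or any other list member, with adjusted p = 0.835 for TNNI1, MYL2 and TPM3.

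Slopes on the score within an RFI group use all 10 of its arrays and gave calls in each. In low RFI 8 genes passed (0.066%), 7 rising (0.0578%) and 1 falling (0.00825%) with the score. In high RFI 6 passed (0.0495%), all rising. ATP2A2, MYL2, PLN, TNNC1, TNNI1 and TPM3 passed in both groups. PLN had a slope of 1.61 in low RFI and 1.62 in high RFI, and TPM3 one of 1.27 in low RFI and 0.96 in high RFI. ATP2A2 had 0.92 in low RFI and 1.02 in high RFI, and TNNI1 had 0.995 in low RFI and 0.85 in high RFI. MYL2 had 0.92 in low RFI and 0.81 in high RFI, and TNNC1 had 0.86 in low RFI and 0.82 in high RFI. The remaining 2 genes of low RFI were CNOT7, a deadenylase subunit, with a slope of 1.14, and GRM5, a glutamate receptor, with a slope of -1.03; both are named because they passed. No difference of slopes between the groups passed (0%; 526 genes had an unadjusted p under 0.05), the smallest adjusted p being 0.605.

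**Figure D4:**
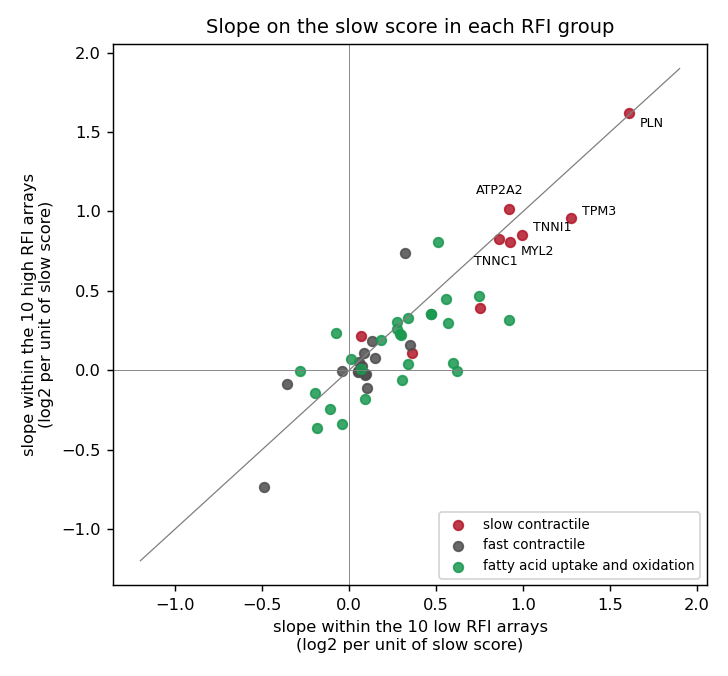
Slope on the slow score (log2 signal per unit of score) within the 10 high RFI arrays against that within the 10 low RFI arrays, for the tested slow contractile, fast contractile and fatty acid genes; the line marks equal slopes. The 6 slow genes that passed in both groups lie near the line, between 0.81 and 1.62 in high RFI.

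Genes of fatty acid uptake and oxidation, the fuel supply of slow fibres, had mostly positive differences of a smaller size. Of 26 tested members of 30, 20 were above 0 and the median was 0.21; none passed over the 14 arrays, and 10 had an unadjusted p under 0.05, all higher, against 5.23% of all genes. In low RFI 19 of the 26 were above 0 with a median of 0.41, and in high RFI 18 with a median of 0.074. Differences of list medians between the RFI groups, here and below, were not tested, and the ends lay further apart in score in low RFI. The median size of a difference over all genes, whatever its sign, was 0.19 in low RFI and 0.11 in high RFI. LPL, the lipase that releases fatty acids from blood lipids at the capillary wall, had 8.53, 8.86 and 9.50 in slow-rich arrays, against 7.61, 8.26 and 8.45 in slow-poor arrays. Its ends did not overlap, and the difference of 0.79 ± 0.16 missed the threshold (adjusted p = 0.123) but passed with RFI as a covariate. Over all 20 arrays LPL had a slope on the score of 0.59 (limma, adjusted p = 0.278), and the middle arrays ran from 7.85 to 9.06. Adipocytes and other cells also make LPL. The oxidation enzymes HADHB, ACAA2, ACADL and HADH differed by 0.44, 0.37, 0.37 and 0.30, with adjusted p-values from 0.362 for HADHB to 0.449 for ACADL.

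Mitochondrial genes had mostly positive differences over the 14 arrays, with larger medians in low RFI than in high RFI. All 15 tested genes of the TCA cycle and pyruvate oxidation were above 0, with a median of 0.13, yet none reached an unadjusted p under 0.05. In low RFI all 15 were above 0 with a median of 0.24, and in high RFI 9 were, with a median of 0.054. CS, citrate synthase, differed by 0.17 with a 95% interval from -0.017 to 0.36, and DLD, a shared subunit of the pyruvate and oxoglutarate dehydrogenases, by 0.34 with an interval from -0.019 to 0.69. Of 15 tested genes of complexes II to V, out of 27 in the list, 14 were above 0 with a median of 0.15. That median was 0.15 in low RFI and 0.066 in high RFI. An unadjusted p under 0.05 was reached by 4 of the 15, all higher, against 5.23% of all genes. Among the 4 were SDHB of complex II at 0.29, UQCRB of complex III at 0.28, and ATP5F1 and ATP5J of the ATP synthase at 0.32 and 0.24. Of 20 tested genes of complex I, out of 27 in the list, 16 were above 0 with a median of 0.079, NDUFS1 having the largest at 0.36. In low RFI 16 of these 20 were above 0 with a median of 0.26, and in high RFI 11 with a median of 0.0072. COX7A1, the muscle form of a subunit of complex IV, differed by 0.38. For all of these the adjusted p was at least 0.454.

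Of 15 tested genes of shuttles and energy buffering, 12 were above 0 with a median of 0.18 (0.22 in low RFI and 0.15 in high RFI); myoglobin (MB) was among the 5 not tested. CA3, the carbonic anhydrase typical of slow fibres, had 11.57, 11.79 and 12.27 in slow-rich arrays, against 11.10, 11.50 and 11.90 in slow-poor arrays, a difference of 0.41 ± 0.13 (adjusted p = 0.409). GPD2, the mitochondrial end of the glycerol phosphate shuttle, differed by 0.61 ± 0.18 (adjusted p = 0.401), and GOT1, a transaminase of the malate-aspartate shuttle, by 0.34. In the list of glucose uptake and insulin signalling 12 of 15 were above 0. The median was 0.23 (0.44 in low RFI and 0.12 in high RFI). Of these 15, 5 had an unadjusted p under 0.05, all higher, against 5.23% of all genes. SLC2A4, the insulin-responsive glucose transporter GLUT4, had 8.52, 9.02 and 9.43 in slow-rich arrays, against 8.08, 8.51 and 8.88 in slow-poor arrays. Its difference of 0.53 ± 0.14 did not pass (adjusted p = 0.342), nor did that of INSR, the insulin receptor, at 0.46, or PRKAA2, a catalytic subunit of AMP-activated kinase, at 0.37. The 23 tested genes of glycolysis and glycogen divided into 14 above and 9 below 0, with a median of 0.028 (0.12 in low RFI and -0.0070 in high RFI) and none at an unadjusted p under 0.05.

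Regulators of the slow programme had 16 of 20 tested members above 0. The median was 0.14 (0.22 in low RFI and 0.079 in high RFI). Of these 20, 5 had an unadjusted p under 0.05, all higher, against 5.23% of all genes. PPARA, a nuclear receptor that drives fatty acid oxidation genes, had 6.77, 7.05 and 7.56 in slow-rich arrays, against 6.27, 6.55 and 6.80 in slow-poor arrays, overlapping only narrowly. The difference was 0.50 ± 0.13 (adjusted p = 0.318). RCAN1, an inhibitor and target of calcineurin, differed by 0.54, VGLL2, a muscle cofactor of TEAD factors, by 0.47, and PROX1, a homeobox factor needed for slow fibres in mouse and zebrafish, by 0.32. PPARGC1A, the coactivator PGC-1 alpha, differed by 0.63 ± 0.28 and spread widely, from 8.31 to 10.12 in slow-rich and from 7.78 to 9.13 in slow-poor arrays (adjusted p = 0.518). Of 11 regulators of the fast programme 9 were above 0, with a median of 0.12 (0.12 in low RFI and 0.00074 in high RFI), BHLHE41, a transcriptional repressor also known from the circadian clock, having 0.42 (adjusted p = 0.488).

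None of the genes in the remaining function lists passed. Shared sarcomere and Z disc genes had 17 of 22 above 0 with a median of 0.13 (0.28 in low RFI and 0.027 in high RFI) and none at an unadjusted p under 0.05; TTN, titin, differed by 0.28, NEB, nebulin, by 0.32 and ACTN2, the actinin of all fibres, by 0.20. Calcium release and handling genes had 7 of 12 above 0 with a median of 0.028 (0.12 in low RFI and -0.037 in high RFI). Genes of mitochondrial transcription and dynamics had 9 of 14 above 0 with a median of 0.099 (0.20 in low RFI and -0.036 in high RFI). Cytosolic ribosomal protein genes had 19 of 24 above 0 with a median of 0.11 (0.14 in low RFI and 0.11 in high RFI). Proteasome and atrophy ligase genes had 15 of 17 above 0 with a median of 0.12. In low RFI 14 of these 17 were above 0 with a median of 0.31, and in high RFI 7 with a median of -0.036. FBXO40 and FBXO30, a pair of muscle ubiquitin ligase genes, differed by 0.57 and 0.51 (adjusted p = 0.401 and 0.434). Developmental myosin and acetylcholine receptor genes had 3 of 6 above 0 with a median of -0.028, and muscle spindle genes 1 of 4 with a median of -0.076.

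Heat shock and immediate early genes had 12 of 15 below 0, with a median of -0.096. The list's direction was not shared by the RFI groups: in low RFI 9 of 15 were above 0 with a median of 0.075, and in high RFI 2 were, with a median of -0.19. ATF3, a transcription factor induced by stress, had 8.44, 10.26 and 10.55 in slow-rich arrays, against 9.92, 11.07 and 11.23 in slow-poor arrays. Its difference of -0.94 ± 0.29 came with overlapping ends (adjusted p = 0.401). HSPB6, a small heat shock protein abundant in slow and cardiac muscle, ran the other way at 0.35 ± 0.13 (adjusted p = 0.454).

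**Figure D5:**
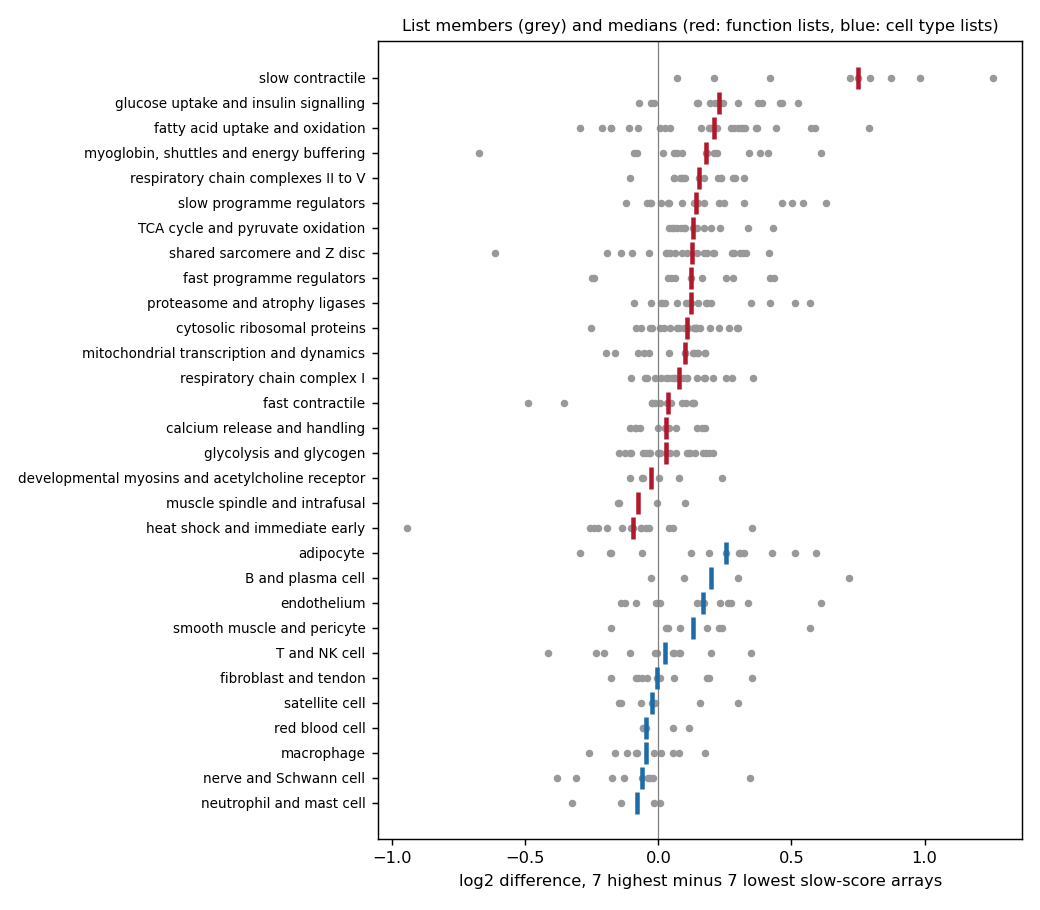
Log2 difference (slow-rich minus slow-poor arrays) of each tested member of the 30 lists, as grey points, with the list's median as a bar. The slow contractile median of 0.75 stands far to the right of every other list, the next being the adipocyte list at 0.25.

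Markers of other cells in the muscle were measured beside these lists, and none passed. Of 13 adipocyte markers 9 were above 0, with a median of 0.25, and their mean level per array ranged from 5.93 to 6.94 in slow-rich and from 5.71 to 6.997 in slow-poor arrays. ADIPOQ, adiponectin, differed by 0.59 ± 0.38 with a 95% interval from -0.21 to 1.39, and FABP4, a fat cell fatty acid carrier, by 0.51. The other 4 markers were below 0, with RETN the lowest at -0.30. Only 1 adipocyte marker had an unadjusted p under 0.05 in limma, and it was lower in slow-rich arrays. Over all arrays the median correlation of the adipocyte markers with the score was -0.030. The median difference of the adipocyte markers was -0.012 in low RFI and 0.43 in high RFI. With the adipocyte level as a covariate TNNI1, MYL2 and TPM3 still passed, with differences of 0.88, 0.82 and 1.04. Of 14 endothelial markers 10 were above 0, with a median of 0.17 (0.26 in low RFI and 0.13 in high RFI). Of these 14, 4 had an unadjusted p under 0.05 in limma, all higher, against 5.23% of all genes. Mean levels of the endothelial markers ran from 5.58 to 5.73 in slow-rich against 5.46 to 5.63 in slow-poor arrays. PECAM1, a junction protein of vessel walls, differed by 0.34 ± 0.12 (adjusted p = 0.433) and TEK, the angiopoietin receptor, by 0.61 ± 0.18 (adjusted p = 0.401), with 1 slow-poor array at 3.66 and the others at 4.64 or above. Smooth muscle and pericyte markers had 7 of 8 above 0 with a median of 0.13, and their levels ran from 6.78 to 7.12 in slow-rich and from 6.62 to 6.87 in slow-poor arrays. LPL differed by 0.71 and FABP3 by 0.58 with the adipocyte level as a covariate, neither past the threshold. The part of vessel cells in the differences of LPL and the fatty acid genes was not tested.

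In the other cell type lists no marker passed either. Fibroblast and tendon markers had 5 of 11 above 0 with a median of -0.0043, macrophage markers 4 of 10 with -0.047, T and NK cell markers 6 of 12 with 0.026, and satellite cell markers 2 of 7 with -0.024. Nerve and Schwann cell markers had 1 of 9 above 0 with a median of -0.060, red blood cell markers 2 of 5 with -0.045, and neutrophil and mast cell markers 1 of 4 with -0.079. B and plasma cell markers had 3 of 4 above 0 with a median of 0.20, at signals close to background.

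Outside the lists, the genes with the smallest p after the slow genes had various functions. MYO9A, an unconventional myosin, had 4.61, 5.48 and 5.55 in slow-rich arrays, against 3.53, 4.19 and 5.03 in slow-poor arrays, a difference of 1.12 ± 0.22 (adjusted p = 0.123). ALG2, a mannosyltransferase that acts early in protein glycosylation, had 4.76, 5.03 and 5.27 in slow-rich arrays, against 4.02, 4.50 and 4.64 in slow-poor arrays, with no overlap. It differed by 0.58 ± 0.11 (adjusted p = 0.123) and, with LPL, passed when RFI was a covariate. Over all 20 arrays ALG2 had a slope on the score of 0.44 (limma, adjusted p = 0.337). CSTF3, a factor of messenger RNA cleavage, RNLS, renalase, and STAG2, a cohesin subunit, differed by 0.997, 0.65 and 0.62, at mean signals of 3.66, 3.78 and 4.25 that are near the mean background of 3.64. RNLS left no overlap between the ends, but its slope over all 20 arrays was 0.40 (limma, adjusted p = 0.417).

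In the lower direction SPRY3, of the Sprouty family of growth factor signalling inhibitors, had 3.98, 4.62 and 5.18 in slow-rich arrays, against 4.80, 5.45 and 6.26 in slow-poor arrays, a difference of -0.97 ± 0.21 (adjusted p = 0.189). TLR3, the receptor for double-stranded RNA, differed by -0.72 ± 0.17 (adjusted p = 0.294), with only 2 of its 3 tested probe sets in that direction. RNF215 and PRSS8, a RING finger protein and a membrane serine protease, differed by -0.52 and -0.50. TRIM29, at a mean signal of 3.15 below the background, was one of 5 genes (0.0413%) whose slow-rich values all lay below the slow-poor ones. Over all genes 16 had ends without overlap (0.132%), 11 of them higher in slow-rich arrays, and 5 of those 11 were slow contractile genes.

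The precision of the comparison was set by 7 arrays per end. Over all tested genes the median half-width of the 95% interval was 0.27, and for 98.6% of genes the whole interval lay within a 2-fold change either way. A difference of 0.5 or more, in either direction, was measured for 183 genes.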

How the data were processed

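The values are log2 signals per probe set of 20 single-colour arrays, deposited by the authors; the scale follows from the range of the values. The submitters' processing notes name GCOS 1.1.1; summarisation, background correction and normalization are not given in the sources used here. Array means lay between 3.33 and 3.35, so the values were taken as normalized. Each array was treated as 1 animal, since the design names 10 pigs per group; no label gives a batch.

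Of 47845 probe sets, 123 controls, 1858 with a microRNA's name as their ID and those with a mean not above the 30th percentile (1.75) were left out. Names came from the platform annotation (71 microRNA genes stayed in through other probe sets; 26426 probe sets with a symbol, 21419 without, 428 updated). A gene was its brightest probe set, and 70.6% of the 12115 genes tested had a mean above the mean background of 3.64. Genes were regressed on the mean of the 69 background control probe sets over all 20 arrays; this spends a degree of freedom that the tests do not count. Tests were 2-sided fits of limma 3.58.1 under R 4.3.3 (lmFit, then eBayes), at an adjusted p of 0.05 (Benjamini-Hochberg over all genes tested). Scripts were tested on the values of these arrays, with ends given to arrays at random and known shifts added to some genes. Dim genes are compressed towards the background, and the number of arrays limits the precision. Figures used matplotlib 3.10.9.

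The members, the 30 lists and the tests were chosen with earlier results of these data known. Named were the score genes, all slow and fast contractile genes, the 15 genes of smallest p in each direction, the 6 members of smallest p in each other list, the genes that followed the score most closely and called interactions; the text gives values for part of them. CNOT7, GRM5, CMTM7 and genes named for a call under 1 setting were chosen after their values were seen. Alternatives changed the background handling, arrays per end, score genes, covariates, filter, probe sets, normalization, weights, test and arrays included. Sequences and genome positions were not analysed here.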

Additional observations from a re-analysis of the deposited data

Results flagged for a closer look

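In 6 of 156 groups of 7 arrays checked, over 78 genes, 1 array stood far from the other 6; chance flags about 1 in 20 groups. In slow-rich arrays, ATP2A1 had 12.66 in high RFI replicate 3, with the nearest array at 12.84, and RNLS had 4.75 in high RFI replicate 10, with the nearest at 4.17. In slow-poor arrays, ACAA2 had 5.87 in low RFI replicate 8 (nearest 6.08), ATF3 had 9.92 in low RFI replicate 9 (nearest 10.79), and high RFI replicate 5 had 10.40 for CS (nearest 10.18) and 3.66 for TEK (nearest 4.64).

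For 1 gene of 12115 (0.00825%), the difference between slow-rich and slow-poor arrays itself differed between the RFI groups in limma. It was MIR99A, a microRNA gene read by 1 probe set with a mean signal of 2.05, below the mean background of 3.64. In low RFI it had 1.06 and 1.14 in slow-rich arrays, against 2.88, 2.91 and 3.32 in slow-poor arrays, a difference of -1.94. In high RFI it had between 1.37 and 2.91 in slow-rich arrays, against 1.18 to 1.61 in slow-poor arrays, a difference of 1.005. The difference of differences was -2.95 (adjusted p = 0.0357). With 1 array left out, a gene passed this test only without high RFI replicate 2 (2 genes) or 3 (1 gene).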

How the results depend on the processing

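The count of called genes, 3 over the 14 arrays (3 higher and 0 lower in slow-rich arrays), depended on the processing, while TNNI1, MYL2 and TPM3 stayed above 0 under every setting in which they were tested. The count was 0 without the regression on background, with 10 arrays per end, with MYH7 alone as the score, over all probe sets, without the 4 arrays of highest background, and in the exact rank test, whose smallest p of 0.000583 became 0.403 after adjustment. It was 1 with the score without MYOZ2, with quantile and with cyclic loess normalization (TNNI1 each time), 5 with RFI as a covariate and 9 with the continuous score. With the background as a covariate and with array weights it was 2, TPM3 being the gene lost each time. A score from the slow contractile list gave 1 higher gene (MYOZ2) and 1 lower (CMTM7), and the adipocyte level as a covariate added 1 lower gene (INSIG2). Leaving out 1 array moved the count between 0 and 28, with 0 to 24 higher and 0 to 4 lower. It gave 0 to 3 calls within low RFI, 0 to 1 within high RFI and 0 to 2 for the difference between them, whose 1 call became 0 without the background regression, with a mean signal of at least 5 and in the fit of slopes. Slopes gave 8 calls within low RFI and 6 within high RFI, against 0 for the ends. The share of low RFI arrays differed by -14.3 percentage points between slow-rich and slow-poor arrays, and by 0 with 5 arrays per end. The score of low minus high RFI stayed between -0.21 and -0.025 without 1 array. For single genes, 1412 of 1458 checks under other settings kept direction and side of the threshold. MYH4 turned to 0.086 without the background regression, 0.036 without the 4 arrays of highest background and 0.0095 with the adipocyte covariate. ATP2A1 turned to 0.0099 without the regression, 0.0033 with the continuous score, 0.0050 with MYH7 alone and 0.022 without MYOZ2. ADIPOQ turned to -0.098 with MYH7 alone and -0.082 with the slow contractile score, and MYL1, TNNI2 and TNNC2 to -0.0083, -0.038 and -0.024 after cyclic loess. Without 1 array, ATP2A1 ranged from -0.034 to 0.019, MYH2 from -0.075 to 0.29 and MYH4 from -0.056 to 0.023. The causes were not tested. Keeping microRNA probe sets, chosen after the data were seen, left 3 calls. No paired analysis was possible because replicate numbers only name the arrays.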
